A study of Rattus norvegicus with 6 samples.

Results

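The annexins are a family of proteins that bind negatively charged phospholipids when calcium is present. Each carries a conserved core that docks on the membrane and a variable N-terminal tail that recruits partners such as S100 proteins. They are known for sealing torn plasma membrane, for linking membrane to actin, for exocytosis and endocytosis, and, in the case of annexin A1, for ending inflammation through a formyl peptide receptor. Several of them are made by glia and phagocytes of the nervous system. Here the transcripts of 8 annexins, ANXA1, ANXA2, ANXA3, ANXA4, ANXA5, ANXA6, ANXA7 and ANXA11, were followed in cultured spinal cord cells in which galectin-3 (GAL3, gene LGALS3), a lectin that binds galactose-containing sugars, had been silenced. They were found by symbol among the 17648 genes of the expression table, and all 8 were among the 8495 genes with a mean value of at least 1 that entered the fit. The family was chosen by the values described below, since ANXA1 and ANXA3 were higher after silencing, so its group differences are given as a description without a test. A further 4 annexins were listed in the table, ANXA8, ANXA9, ANXA10 and ANXA13.

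The cells were spinal cord neuron cultures from neonatal Sprague-Dawley rats, treated with Ara-C against dividing cells. RNA of 6 libraries was sequenced, 3 that had received a control small interfering RNA (siRNA), called siR-Con, and 3 that had received an siRNA against GAL3, called siR-GAL3. According to the methods of the study and the design text of the dataset, both groups received glutamate as an injury (10 μM for 1 h after 3 days of culture, then 16 h without it), while the sample labels name saline for the siR-Con libraries and a knockout for the siR-GAL3 libraries. If the labels were right, glutamate and silencing could not be told apart. There was 1 siRNA against GAL3, and the methods speak of independent experiments for the study in general, while the labels do not tie the libraries to separate cultures. If the libraries shared a culture, the p-values below would measure only technical spread. The values were linear expression values derived from FPKM, which counts fragments per length of transcript, and after the corrections made by the authors 3.86% of them were below 0. None of the 8 annexins had a value below 0. Without read counts the depth is unknown and the counting error cannot be stated. Where values of single libraries are listed, they follow the replicate numbers, from replicate 1 to replicate 3.

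Exactly equal values put siR-Con replicate 1 and siR-GAL3 replicate 1 in a first library set, replicates 2 and 3 of siR-Con with replicate 3 of siR-GAL3 in a second, and siR-GAL3 replicate 2 in a set of its own, and that last library also stood apart on the first principal component. Each annexin difference is therefore given with and without it. LGALS3, the target, was 77.4, 54.4 and 62.4 in siR-Con and -1.64, 32.3 and 18.5 in siR-GAL3, lower in every siR-GAL3 library and by 74.7% in the mean, the value below 0 included. Of the siR-GAL3 libraries, replicate 2 kept the most LGALS3. The labelled cell type was only partly borne out by its markers. The 15 neuronal markers analysed here summed to between 43.2 and 49.4, with 7 of them, among them RBFOX3 (NeuN) and NEFL, below 1 in all libraries. The 10 astrocyte markers summed to between 811 and 1080, and the 10 markers of the oligodendrocyte lineage to between 1050 and 1380. GFAP alone, an astrocyte filament, had a mean of 655 in siR-Con. Transcripts of several cell types were thus in the culture. In such bulk RNA, more cells of a type and more RNA per cell cannot be told apart.

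**Figure D1:**
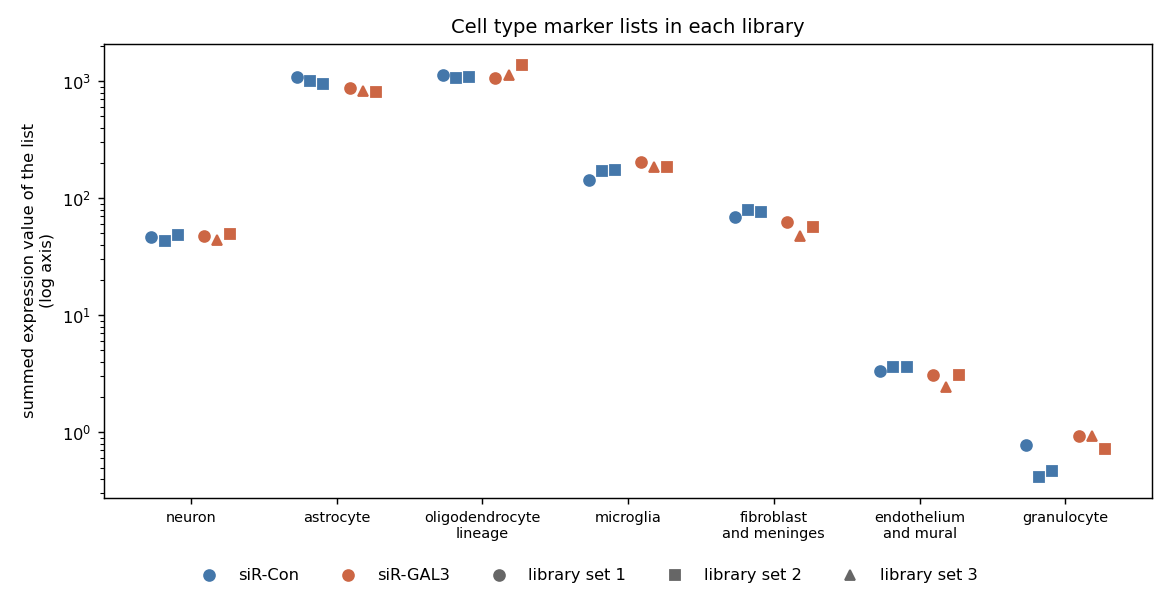
Summed expression value of 7 cell type marker lists in each library, on a log axis, with siR-Con in blue, siR-GAL3 in orange and the symbol giving the library set. The astrocyte and oligodendrocyte lists lie at 811 or above in all libraries and the neuronal list at 49.4 or below. The microglia list is higher in each siR-GAL3 library (184 to 206) than in each siR-Con library (144 to 173). Lower in each siR-GAL3 library are the astrocyte list (811 to 875 against 937 to 1080), the fibroblast list (47.7 to 62.1 against 69.4 to 79.2) and the endothelial and mural list (2.43 to 3.11 against 3.31 to 3.63). Such sums follow their highest genes. GFAP alone is 515 to 533 in siR-GAL3 against 571 to 758 in siR-Con, and PDGFRB, of the endothelial and mural list, 1.08 to 1.26 against 1.44 to 1.92. Taken singly, 3 of the 10 astrocyte markers are lower without overlap, against 10.3% of all genes tested. The sums are therefore not read as shifts of whole lists.

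The family spanned a moderate range of levels. The values derive from FPKM, which is per length of transcript, so levels of different genes are set side by side here. The later corrections by the authors may have altered that scale. In the siR-Con group the order of mean levels was ANXA2 (10.5), ANXA6 (9.40), ANXA5 (8.66), ANXA7 (5.49), ANXA11 (3.62), ANXA1 (3.49), ANXA3 (3.20) and ANXA4 (1.94). Among all genes in the table ANXA2 lay at percentile 94.0 and ANXA4 at percentile 66.2. Most neighbours in this order were separated in all 3 siR-Con libraries. ANXA11 and ANXA1 overlapped, as did ANXA1 and ANXA3, so these neighbours did not differ beyond their spread. In the siR-GAL3 group ANXA1 and ANXA3 stood higher in the order, with ANXA1 (5.19), ANXA7 (5.09) and ANXA3 (5.0) overlapping each other, and ANXA6 and ANXA5 also overlapped. The 4 other annexins were near the bottom of the table. ANXA8, ANXA10 and ANXA13 stayed below 0.1 in all libraries, and ANXA9 reached at most 0.104.

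Across the family, 6 of the 8 annexins had a higher and 2 a lower mean in siR-GAL3, and the median log2 difference of the 8 was 0.18, on the scale log2(value + 1), where the median of all genes tested was -1.19e-05 and their quartiles were -0.101 and 0.0985. Without siR-GAL3 replicate 2 the median of the 8 was 0.115. Differences on this scale understate those of low genes. In 5 of the 8, ANXA1, ANXA2, ANXA3, ANXA4 and ANXA6, every siR-GAL3 library lay above every siR-Con library. Among all genes tested, 10.3% were higher without overlap and 10.3% were lower without overlap. The rule that chose the family used this contrast, so nothing is read from the 5. Summed over the 8 annexins, the level was 47.7, 45.2 and 46.0 in siR-Con and 50.4, 58.9 and 50.6 in siR-GAL3. The highest sum was that of siR-GAL3 replicate 2.

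**Figure D2:**
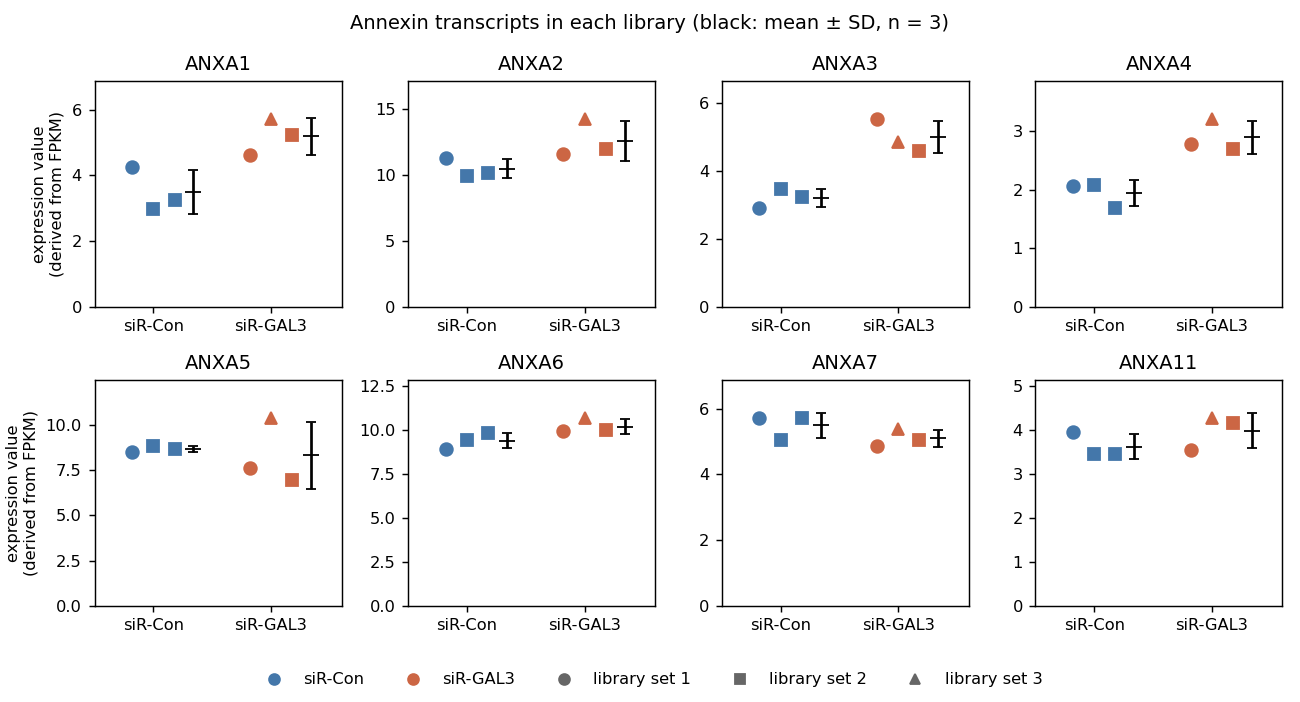
Expression value (derived from FPKM, linear axis from 0) of the 8 annexins in each library, with the mean ± SD of 3 libraries in black and the symbol giving the library set. The siR-GAL3 points of ANXA1, ANXA2, ANXA3, ANXA4 and ANXA6 lie above all siR-Con points, and the groups overlap for ANXA5, ANXA7 and ANXA11.

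ANXA1 (annexin A1), the annexin that glucocorticoids induce and that phagocytes release, had values of 4.26, 2.97 and 3.25 in siR-Con, and of 4.61, 5.73 and 5.23 in siR-GAL3. The groups did not overlap, but the highest siR-Con library and the lowest siR-GAL3 library were only 0.354 apart, and these were the 2 libraries of the first set. The mean was 3.49 ± 0.677 (SD, n = 3) in siR-Con and 5.19 ± 0.560 (SD, n = 3) in siR-GAL3, which was 48.6% higher. The log2 difference was 0.47 (standard error 0.12). It was 0.41 without siR-GAL3 replicate 2. In the first library set alone the difference was 0.094 and in the second it was 0.60.

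ANXA3 (annexin A3), known as an inhibitor of phospholipase A2 in the test tube, was the annexin with the largest relative difference. Its values were 2.92, 3.46 and 3.23 in siR-Con, and 5.54, 4.85 and 4.6 in siR-GAL3. The lowest siR-GAL3 library exceeded the highest siR-Con library by 1.14. The mean was 3.20 ± 0.271 (SD, n = 3) in siR-Con and 5.0 ± 0.484 (SD, n = 3) in siR-GAL3, 55.9% higher. The log2 difference was 0.51 (standard error 0.087), and 0.53 without siR-GAL3 replicate 2. ANXA3 was higher within both sets, by 0.74 in the first and 0.37 in the second. This was the reverse of ANXA1, whose difference was larger in the second set.

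ANXA4 (annexin A4), which assembles on calcium-bound membrane and bends the edges of wounds in it, was the lowest of the family but had nearly the same relative difference as ANXA1. It was 2.06, 2.07 and 1.69 in siR-Con, and 2.77, 3.21 and 2.70 in siR-GAL3. The groups were separated by 0.632. The mean was 1.94 ± 0.215 (SD, n = 3) in siR-Con and 2.89 ± 0.279 (SD, n = 3) in siR-GAL3, 49.0% higher. The log2 difference was 0.40 (standard error 0.086), and 0.35 without siR-GAL3 replicate 2. In the first and second library set it was 0.30 and 0.36. ANXA4 was the annexin whose within-set differences lay closest together among these 3.

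ANXA1, ANXA3 and ANXA4 lay at percentiles 99.1, 99.2 and 98.6 of the log2 differences of all genes tested. The bases before their start sites are shown here because these 3 annexins had the largest differences of the family. They are 250 bases upstream of the annotated start from RefSeq (build GRCr8), for ANXA1 at chr1:227303733-227303982, for ANXA3 at chr14:13085598-13085847 and for ANXA4 at chr4:120798514-120798763, all on the minus strand, 5′ to 3′ along the gene. Capitals mark a TATAA, a GC box (GGGCGG) or a CCAAT on either strand.
ANXA1: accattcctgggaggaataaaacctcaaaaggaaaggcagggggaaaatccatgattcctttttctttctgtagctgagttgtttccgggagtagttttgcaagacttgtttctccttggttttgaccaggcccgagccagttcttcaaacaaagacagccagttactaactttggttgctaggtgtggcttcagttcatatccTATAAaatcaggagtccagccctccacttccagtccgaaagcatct
ANXA3: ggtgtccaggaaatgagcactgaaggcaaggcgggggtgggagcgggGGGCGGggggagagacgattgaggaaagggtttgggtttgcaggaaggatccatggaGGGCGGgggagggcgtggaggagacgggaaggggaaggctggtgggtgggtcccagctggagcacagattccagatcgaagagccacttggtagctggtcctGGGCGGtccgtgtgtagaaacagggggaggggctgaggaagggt
ANXA4: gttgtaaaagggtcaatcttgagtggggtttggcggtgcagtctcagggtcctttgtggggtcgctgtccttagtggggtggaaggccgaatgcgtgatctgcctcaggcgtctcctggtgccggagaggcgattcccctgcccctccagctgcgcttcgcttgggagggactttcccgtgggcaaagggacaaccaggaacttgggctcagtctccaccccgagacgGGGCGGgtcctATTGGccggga

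The 3 windows differed in make-up. That of ANXA1 held 45.2% G and C, and those of ANXA3 and ANXA4 held 64.0% and 62.4%, where the median of the 33469 promoters in the table was 51.2%. ANXA1 had a TATAA between 46 and 42 bases before the start and no GC box. ANXA3 had 3 GC boxes and no TATAA, and ANXA4 had 1 GC box between 22 and 17 bases and a CCAAT on the opposite strand between 11 and 7 bases before the start. Promoters were given for 7 of the 8 annexins, all but ANXA6. Of these 7, 5 held a GC box, against 30.5% of all promoters, 3 held TATAA, against 24.0%, and 2 held CCAAT, against 34%. An AP-1 motif (TGACTCA or TGAGTCA, which are each other's reverse complement) was found in that of ANXA2 only, against 4.05% of all promoters. The letters searched for interferon and STAT motifs (GAAANNGAAA and TTCNNNGAA) were in none of the 7 windows, against 3.41% and 7.67% of all promoters. These matches describe letters in a short window and are no evidence of binding.

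ANXA2 (annexin A2), the most abundant member, pairs with S100A10, holds plasminogen activator at the cell surface and links endosomes to actin. It was 11.3, 9.96 and 10.2 in siR-Con, and 11.6, 14.3 and 12 in siR-GAL3. The highest library was siR-GAL3 replicate 2, and the groups were separated by only 0.239. The mean was 10.5 ± 0.725 (SD, n = 3) in siR-Con and 12.6 ± 1.49 (SD, n = 3) in siR-GAL3, 20.1% higher. The log2 difference of 0.24 (standard error 0.098) was 0.15 without that library, and within the first set it was 0.028. The RefSeq table names 1 pseudogene of ANXA2 and 4 of ANXA7, with which reads of these genes may have been shared.

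ANXA6 (annexin A6), the largest annexin, carries a duplicated core and recruits the Ras regulator RASA1 to the membrane. Its values were 8.94, 9.44 and 9.82 in siR-Con, and 9.96, 10.7 and 9.99 in siR-GAL3. The groups were separated by 0.132, less than the SD of either group, 0.445 in siR-Con and 0.418 in siR-GAL3. The mean was 8.67% higher in siR-GAL3, with a log2 difference of 0.11 (standard error 0.068), and of 0.078 without siR-GAL3 replicate 2. It was 0.14 within the first library set and 0.048 within the second.

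ANXA11 (annexin A11) ties RNA granules to lysosomes for transport along axons. It was 3.95, 3.45 and 3.45 in siR-Con, and 3.54, 4.28 and 4.16 in siR-GAL3. The groups overlapped, and the log2 difference was 0.11 (standard error 0.086), or 0.070 without siR-GAL3 replicate 2. It was the only annexin with opposite signs in the library sets, -0.12 in the first and 0.21 in the second.

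ANXA5 (annexin A5), the protein used to stain phosphatidylserine on dying cells, gave the widest spread within siR-GAL3. Its values were 8.48, 8.82 and 8.66 in siR-Con, and 7.60, 10.4 and 6.93 in siR-GAL3. Of the siR-GAL3 libraries, 2 lay below all siR-Con libraries and replicate 2 lay above them. The mean was 8.66 ± 0.171 (SD, n = 3) in siR-Con and 8.32 ± 1.85 (SD, n = 3) in siR-GAL3, and the log2 difference was -0.07 (standard error 0.14). Without siR-GAL3 replicate 2 the log2 difference was -0.23 (standard error 0.054). Within the sets it was -0.14 and -0.30, so that outside that library ANXA5, like ANXA7, was lower in siR-GAL3.

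ANXA7 (annexin A7, or synexin), which promotes membrane fusion and binds the calcium sensor sorcin, was the other member with a lower mean in siR-GAL3. It was 5.72, 5.05 and 5.70 in siR-Con, and 4.87, 5.37 and 5.03 in siR-GAL3. The groups overlapped, the mean was lower by 7.36% and the log2 difference was -0.09 (standard error 0.074), or -0.13 without siR-GAL3 replicate 2. The difference was below 0 within both library sets.

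**Figure D3:**
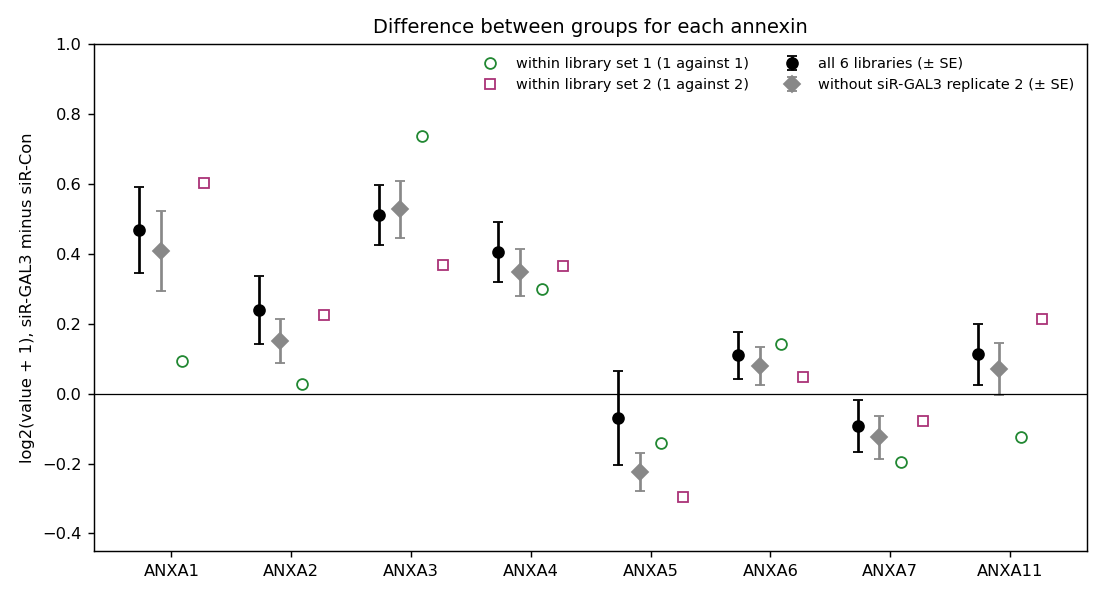
Difference between the groups on log2(value + 1) for each annexin, from all 6 libraries and without siR-GAL3 replicate 2 (both ± standard error), and within library sets 1 and 2 (open symbols, no error). ANXA1, ANXA2, ANXA3, ANXA4 and ANXA6 are above 0 and ANXA5 and ANXA7 below 0 in all 4 readings. ANXA5 moves from -0.07 to -0.23 without siR-GAL3 replicate 2, and ANXA11 has opposite signs in the 2 sets.

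**Figure D4:**
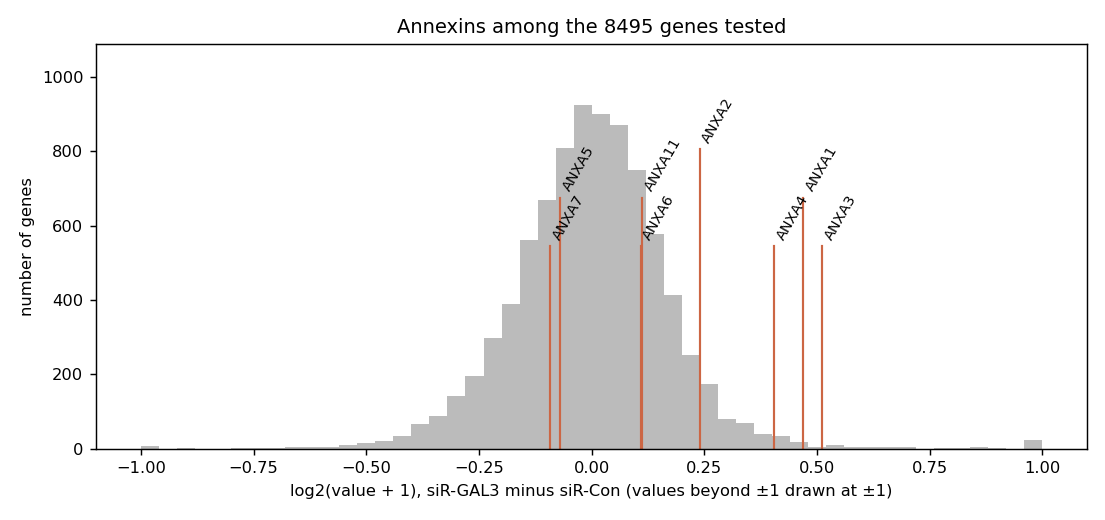
Number of genes by difference between the groups on log2(value + 1) for the 8495 genes tested, with the 8 annexins drawn as lines whose height carries no value. ANXA4, ANXA1 and ANXA3, at 0.40, 0.47 and 0.51, lie furthest in the upper tail. ANXA2, at 0.24, lies at percentile 94.2, and the remaining annexins lie nearer the middle.

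One library was the highest for most of the family. In 6 of the 8 annexins, all but ANXA3 and ANXA7, siR-GAL3 replicate 2 had the highest value of the 6 libraries, and in none had it the lowest. Among all genes tested it was the highest in 41.5% and the lowest in 35.1%. Within both library sets that held both groups, 5 annexins were higher and 2 were lower in siR-GAL3. Of all genes tested 25.6% were higher and 28.4% lower within both sets. The rule that chose the family used the same contrast, so nothing is read from the counts in this paragraph.

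Among themselves the annexins did not vary as 1 block. Over the 6 libraries, Pearson's r of log2(value + 1) was 0.93 between ANXA1 and ANXA2, 0.86 between ANXA3 and ANXA4 and 0.67 between ANXA1 and ANXA3. These values share the group difference. With the group means removed, ANXA1 still ran with ANXA2 (r = 0.84) and ANXA11 (r = 0.91), but against ANXA3 (r = -0.84). ANXA3 also ran against ANXA11 (r = -0.91). These are descriptions over the same 6 libraries, which share their library sets and the correction by the authors.

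The genes whose pattern over the 6 libraries was most like that of ANXA1 were AIM2, LRRC47, SNX32, PMM2 and INSIG2, with r between 0.980 and 0.988. AIM2 senses DNA in the cytosol, and its log2 difference was 0.43. Those of LRRC47, SNX32, PMM2 and INSIG2 were smaller, at 0.077, 0.17, 0.18 and 0.14. For ANXA3 they were TRPV2, CTSS, RNASET2, FCRL2 and BIN2, with r between 0.982 and 0.995. CTSS is a lysosomal protease of phagocytes, with means of 14.0 in siR-Con and 17.5 in siR-GAL3. With the group means removed, the most alike were NMI, ANKZF1, HERPUD2, CKAP2L and JUNB for ANXA1 (r between 0.987 and 0.999), and SLC44A2, CERK, CENPJ, TMEM229B and SLC38A3 for ANXA3 (r between 0.992 and 0.996). TRPV2 and TMEM229B had siR-Con means of 0.725 and 0.994 and passed the filter at a mean of 1 only through the siR-GAL3 libraries. All these genes were picked from 8495 for their r over 6 libraries, so no p is given.

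The proteins that annexins work with were then examined from a list of 23 partners, of which 21 were analysed here and 16 could be tested. In limma, none of the 16 had a Benjamini-Hochberg adjusted p under 0.05, as was the case for 0% of the genes tested. At an unadjusted p under 0.05, where 4.41% of all genes tested were higher and 4.25% lower, 1 partner was higher and 0 were lower, and the median log2 fold change of the 16 was 0.02. The higher one was S100A6, a small calcium-binding partner of annexin A11. Its mean was 0.995 in siR-Con and 1.83 in siR-GAL3, so it passed the filter at a mean of 1 only through the siR-GAL3 libraries. It was 1.00, 0.780 and 1.2 in siR-Con, and 1.47, 2.79 and 1.23 in siR-GAL3. Its log2 fold change was 0.47 (standard error 0.20, unadjusted p = 0.0483, adjusted p = 0.574), and siR-GAL3 replicate 2 was its highest library. With that library left out, S100A6 had a log2 fold change of 0.24 (unadjusted p = 0.0312, adjusted p = 0.256). The unadjusted p rose above 0.05 with any 1 siR-Con library left out (0.058 to 0.141), with the library set as a block (0.0531), with the replicate number as a block (0.055) and with no filter on low values (0.0763). The next smallest p among the partners were those of MYOF and TRPM7, with log2 fold changes of -0.22 and -0.21 (unadjusted p = 0.0561 and 0.0820 in limma). MYOF is a ferlin of membrane fusion and repair, and TRPM7 a channel whose kinase acts on annexin A1. Without siR-GAL3 replicate 2, 2 partners were higher (S100A6 and PDCD6IP) and 1 was lower (S100A10), where 6.98% of all genes tested were higher and 9.36% lower.

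S100A10 and S100A11, named here as direct partners of the higher annexins, did not pass the test in the main fit. S100A11, the partner of annexin A1, was 15.8, 14.8 and 13.3 in siR-Con, and 14.9, 24.7 and 17.8 in siR-GAL3, so the groups overlapped (log2 fold change 0.34, unadjusted p = 0.0868, adjusted p = 0.585). Its log2 fold change was 0.15 without siR-GAL3 replicate 2 (unadjusted p = 0.13) and 0.50 without siR-GAL3 replicate 1 (unadjusted p = 0.0152, adjusted p = 0.319). S100A10, the partner of annexin A2, was far above ANXA2 in level, at 36.4 ± 4.77 (SD, n = 3) in siR-Con and 34 ± 6.78 (SD, n = 3) in siR-GAL3. Its log2 fold change was -0.10 (adjusted p = 0.757), and -0.26 without siR-GAL3 replicate 2 (unadjusted p = 0.0312, adjusted p = 0.256), where ANXA2 differed by 0.15. With the library set as a block in limma, the log2 fold change of S100A10 was -0.29 (unadjusted p = 0.0128, adjusted p = 0.215). The formyl peptide receptors FPR1 and FPR2, through which annexin A1 acts on phagocytes, were below 0.1 in all libraries. PLA2G4A, the cytosolic phospholipase A2 that annexin A1 inhibits, was too low for the main fit, at 0.365, 0.257 and 0.435 in siR-Con and at 0.551, 0.661 and 0.614 in siR-GAL3. It lay higher in each siR-GAL3 library, as did 10.3% of the genes in the main fit, and is named here after its values were seen. With no filter on low values its log2 fold change in limma was 0.25 (unadjusted p = 0.00599, adjusted p = 0.327).

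Of 19 genes for repair of the plasma membrane, 18 were analysed here and 14 tested. In this list 0 were higher and 1 was lower at an unadjusted p under 0.05, against 4.41% and 4.25% of all genes tested, and 0 had an adjusted p under 0.05 in limma, with a median log2 fold change of 0.05. The lower one was EHD2, an ATPase at the neck of caveolae that is drawn to membrane wounds. EHD2 was 6.41, 5.78 and 7.03 in siR-Con, and 4.73, 4.89 and 4.51 in siR-GAL3. Its log2 fold change was -0.37 (standard error 0.082, unadjusted p = 0.00266, adjusted p = 0.240). It stayed below 0, with an unadjusted p of at most 0.013, under each alternative in which EHD2 was tested, and without siR-GAL3 replicate 2 the adjusted p was 0.0441, where 1.97% of all genes tested had an adjusted p under 0.05. Without that library 3 repair genes were higher (CAV1, EHD1 and PDCD6IP) and 2 were lower (EHD2 and CAVIN1) at an unadjusted p under 0.05, against 6.98% and 9.36% of all genes tested. MYOF, which is on both lists, and TSG101, an ESCRT protein of membrane scission, had the next smallest p, that of TSG101 being 0.0565 in limma with a log2 fold change of 0.17. DYSF (dysferlin), which gathers annexins at wounds in muscle, was at most 0.126.

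**Figure D5:**
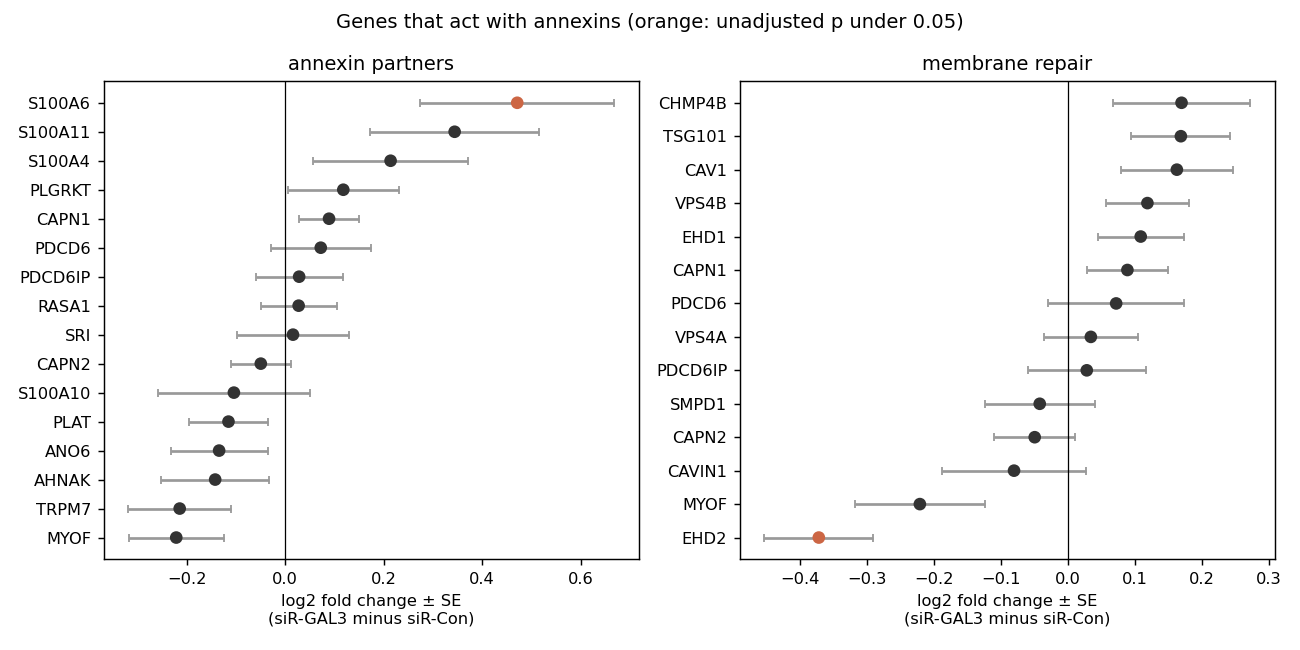
Log2 fold change (siR-GAL3 minus siR-Con, ± standard error from limma) of the 16 tested annexin partners and the 14 tested membrane repair genes, with an unadjusted p under 0.05 in orange. S100A6 (0.47) and EHD2 (-0.37) are the coloured genes, and most of the others lie within 0.2 of 0.

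Markers of several cell types were taken from the same fit, and none of them had an adjusted p under 0.05 in limma. The counts at an unadjusted p are descriptions, and a count of 0 does not show that a cell type was unchanged. Of 15 tested microglia markers, 7 were higher at an unadjusted p under 0.05 and 0 were lower, against 4.41% and 4.25% of all genes tested, and none had an adjusted p under 0.05 in limma. Their median log2 fold change was 0.24. The marker genes named here were chosen after their values were seen. CD68 and AIF1 were the furthest, at log2 fold changes of 0.54 and 0.57, where ANXA1 and ANXA3 differed by 0.47 and 0.51. CX3CR1, P2RY12 and CSF1R, which mark resting microglia, had log2 fold changes of 0.02, 0.02 and 0.08, and TMEM119 was below 1 in all libraries. Without siR-GAL3 replicate 2, 8 of the 15 were higher at that level, now with CSF1R, and 5 had an adjusted p under 0.05, against 6.98% higher and 1.97% with such an adjusted p among all genes tested. With any other library left out 5 to 7 were higher. Of the 8 tested fibroblast and meningeal markers 4 were lower at an unadjusted p under 0.05, among them COL3A1 (log2 fold change -0.50), and of the 10 astrocyte markers 4 were lower, among them GFAP (-0.31). Without siR-GAL3 replicate 2, 6 fibroblast and 4 astrocyte markers were lower and 1 astrocyte marker, SLC1A3, was higher, where 9.36% of all genes tested were lower. The fibroblast count was 2 without siR-Con replicate 2 or 3, and the astrocyte count was 1 without siR-Con replicate 2, siR-Con replicate 3 or siR-GAL3 replicate 3. Of 7 tested neuronal markers 1 was higher and 0 were lower at an unadjusted p under 0.05, and of 9 oligodendrocyte lineage markers 0 passed. The higher one, STMN2 (log2 fold change 0.33), had a siR-Con mean of 0.822 and passed the filter through the siR-GAL3 libraries. Without siR-GAL3 replicate 2, 2 neuronal and 2 oligodendrocyte lineage markers were higher, against 6.98% of all genes tested. The granulocyte list summed to less than 1 in all libraries, with MPO, ELANE, S100A8 and S100A9 below 0.1. Of the 8 endothelial and mural markers analysed here 7 were below 1, and PDGFRB was lower (log2 fold change -0.30). The part of any of these cells in the annexin values was not tested.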

How the data were processed

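Spinal cord cell RNA of 6 libraries, 3 per group, was sequenced on an Illumina platform, which the methods and design text call HiSeq and the supplement NovaSeq. Per the methods of the study, the authors aligned reads with STAR, counted them with HTSeq, computed FPKM, and had batch effects removed and the values standardised and corrected within groups, with the tools for these last steps not given in the sources used here. The deposited values are therefore scores on a linear scale derived from FPKM, with neither counts nor depth. The genome build is not given in the sources used here. The labels name ribosomal depletion and the supplement poly(A) selection. The table pairs values with gene symbols, 16309 of which matched RefSeq symbols (GRCr8), all annexins included.

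Values below 0 were set to 0, genes whose mean over the 6 libraries reached 1 were kept, and log2(value + 1) was fitted for all of them with limma 3.58.1 (R 4.3.3) with an intensity trend and Benjamini-Hochberg adjustment. Groups were taken from the labels. The design had been written for FPKM, and the same test was used. The fit was checked on simulated data. The main fit did not pair libraries by replicate number. Deviations of same-numbered libraries correlated at -0.17, -0.0699 and 0.0441. After the corrections by the authors this cannot exclude pairing, and the 2 libraries numbered 1 shared a library set.

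The annexins, the gene lists and the tests were chosen with earlier results of these data known. Genes named were the annexins, LGALS3, those of the partner and repair lists with an unadjusted p under 0.05 or otherwise the 3 smallest, and the 5 most like ANXA1 and ANXA3 by Pearson's r, with exceptions marked. FPKM already divides by length, so levels of different genes were compared on it, although the later corrections may have altered that scale.

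Alternatives were no filter on low values, a filter at a mean of 10, a pseudocount of 0.1, quantile normalisation, median-ratio scaling, no intensity trend, genes with a value below 0 left out, the replicate number or the library set as a block, and each library left out in turn.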

Additional observations from a re-analysis of the deposited data

How the results depend on the processing

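The median log2 difference of the annexins stayed above 0 under all alternatives, between 0.11 and 0.24, and was 0.115 without siR-GAL3 replicate 2. The count of 5 annexins without overlap was 1 with a mean of at least 10, where ANXA2 alone of the family was tested, and 5 to 6 with a library left out. The share of all genes tested without overlap, 10.3% in each direction, is given for the main fit only, so nothing is read from these counts. A pseudocount of 0.1 gave log2 differences of 0.62 for ANXA3 and 0.55 for ANXA4, and ANXA5 turned to 0.037 without siR-GAL3 replicate 3. The genes called over the whole table, 0 at an adjusted p under 0.05 (736 at an unadjusted p under 0.05), were 6 with the replicate block, 106 with a block for the library set and 0 to 167 with a library left out, the most without siR-GAL3 replicate 2. Partners at an unadjusted p under 0.05 numbered 0 with a mean of at least 10 and 0 to 4 with a library left out, the most without siR-GAL3 replicate 1. Elsewhere the count stayed at 1, but the gene changed. It was PLA2G4A (higher) with no filter, MYOF (lower) with the replicate block and S100A10 (lower) with a block for the library set. Repair genes numbered 3 with no filter on low values, 0 with a mean of at least 10, 2 with the replicate block, 4 with a block for the library set and 1 to 5 with a library left out. Over the whole table the unadjusted count also moved, from 736 of 8495 genes in the main fit. It was 1623 of 17648 with no filter, 121 of 1120 with a mean of at least 10 and 543 of 8495 with the replicate block. With a block for the library set it was 1174 of 8495. With a library left out it was between 344 and 1388 of 8495, with 1249 without siR-GAL3 replicate 1 and 1388 without siR-GAL3 replicate 2. The list counts are therefore no result about the lists. Whether the replicate numbers pair the libraries is not known, so the paired fit is given as an alternative only. The cause of these changes was not tested. Depth is unknown, so small differences of low annexins such as ANXA4 cannot be set against counting error.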
